A study of Mus musculus with 24 samples.

Results

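The genes described here are Zscan4c, Zscan4d, Zscan4f, Usp17le, Zfp352, Dppa2 and Dppa4. These 7 genes were taken by their symbol, and each was found once among the 23095 genes listed for the J1 line and once among the 25476 genes listed for the tet-off lines. The first 5 are genes of the 2-cell embryo (2C genes) that gave few reads here, and Dppa2 and Dppa4 are a pair of neighbouring genes that gave many. All 24 libraries hold poly(A) RNA of cultured mouse pluripotent stem cells, with 2 replicates in each of 12 groups. Wild-type J1 ESCs, grown in serum medium with LIF and 2i (inhibitors of GSK3 and MEK), were compared with D-EPSCs and L-EPSCs, the expanded potential stem cells made from them in 2 different media. The D-EPSC medium held minocycline, dimethindene maleate, CHIR99021 and LIF, and the L-EPSC medium held SB203580, JNK inhibitor VIII, XAV939, A-419259, PD0325901, CHIR99021 and LIF. Tet-off cKO lines for Oct4, Sox2 and Nanog were compared as ESCs, as untreated L-EPSCs and as L-EPSCs treated with doxycycline (Dox). In each tet-off line the endogenous gene is deleted in every group, ESCs included, and a transgene that Dox shuts off supplies the factor. Each factor is represented by a single cell line (ZHBTc4 for Oct4, 2TS22C for Sox2 and NgcKO for Nanog), and no D-EPSCs or Dox-treated ESCs of these lines were analysed here. Nothing states that the 2 replicates of a group came from separate cultures, so the p-values measure the spread between these libraries, which may be technical.

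The zygotic genome of the mouse becomes active at the 2-cell stage, and a small, changing share of cells in an ESC culture briefly expresses genes of that stage. Zscan4 proteins are zinc finger factors with a SCAN domain that are known for their part in telomere maintenance in ESCs, Usp17le belongs to a family of deubiquitinating enzymes, and Zfp352 encodes a zinc finger protein of the 2-cell embryo. Dppa2 and Dppa4 encode nuclear proteins with a SAP domain that bind chromatin as a pair, are expressed in nearly all ESCs, and are known to act upstream of Dux, the factor that switches on the 2C genes. In bulk RNA, fewer cells with a transcript and less transcript in each cell cannot be told apart, and this holds for every value below.

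On the NCBIM37 assembly, Zscan4c (ENSMUSG00000054272) lies at chr7:11591071-11595896 on the plus strand, Zscan4d (ENSMUSG00000090714) at chr7:11746992-11751497 on the minus strand and Zscan4f (ENSMUSG00000070828) at chr7:11983264-11988090 on the plus strand. Usp17le (ENSMUSG00000043073) lies at chr7:111916825-111921391 on the minus strand and Zfp352 (ENSMUSG00000070902) at chr4:89885511-89892393 on the plus strand. Dppa4 (ENSMUSG00000058550) at chr16:48283848-48294405 and Dppa2 (ENSMUSG00000072419) at chr16:48310590-48319836 stand head to tail on the plus strand, with 16184 bases between them. The annotation places no other gene over any of the 7, on either strand.

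The Zscan4 genes are near-identical copies, which limits what a read can tell about them. The coding regions of Zscan4c, Zscan4d and Zscan4f are each 1521 bases long and differ at 38 positions. Zscan4c and Zscan4f differ at 6 positions (99.6% identity), and Zscan4d differs from each of them at 35 (97.7%). The stretch of 150 coding bases, the length of a read, with the most differences among these 3 copies (coding positions 616 to 765) is printed here. The capitals mark the 10 positions at which the 3 copies are not all alike.
Zscan4c: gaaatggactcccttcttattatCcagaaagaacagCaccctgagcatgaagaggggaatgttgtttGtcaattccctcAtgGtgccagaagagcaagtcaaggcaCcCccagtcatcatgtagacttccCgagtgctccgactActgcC
Zscan4d: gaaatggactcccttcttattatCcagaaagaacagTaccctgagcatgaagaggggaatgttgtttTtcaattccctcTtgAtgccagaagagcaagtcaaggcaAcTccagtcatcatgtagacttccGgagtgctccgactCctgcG
Zscan4f: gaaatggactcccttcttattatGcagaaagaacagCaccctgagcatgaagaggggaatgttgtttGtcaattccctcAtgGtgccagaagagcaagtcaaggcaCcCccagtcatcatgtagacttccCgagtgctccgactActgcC
In this stretch Zscan4c and Zscan4f differ from each other only at the first capital, and Zscan4d differs from both at all the others. Of all the windows of 150 bases along its longest transcript, 93.0% of those of Zscan4f, 55.7% of those of Zscan4c and 13.6% of those of Zscan4d also occur unchanged in a coding transcript of another gene. Those other genes are the remaining copies among these 3 and Zscan4b, Zscan4e and Zscan4-ps2, for which no values were analysed here. The reads given for a single Zscan4 copy are therefore uncertain, and the 3 copies are not independent measurements. Sequencing was paired-end, and the shares of windows take each read without its mate. How htseq was set to treat a read that matches several copies is not stated.

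**Figure D1:**
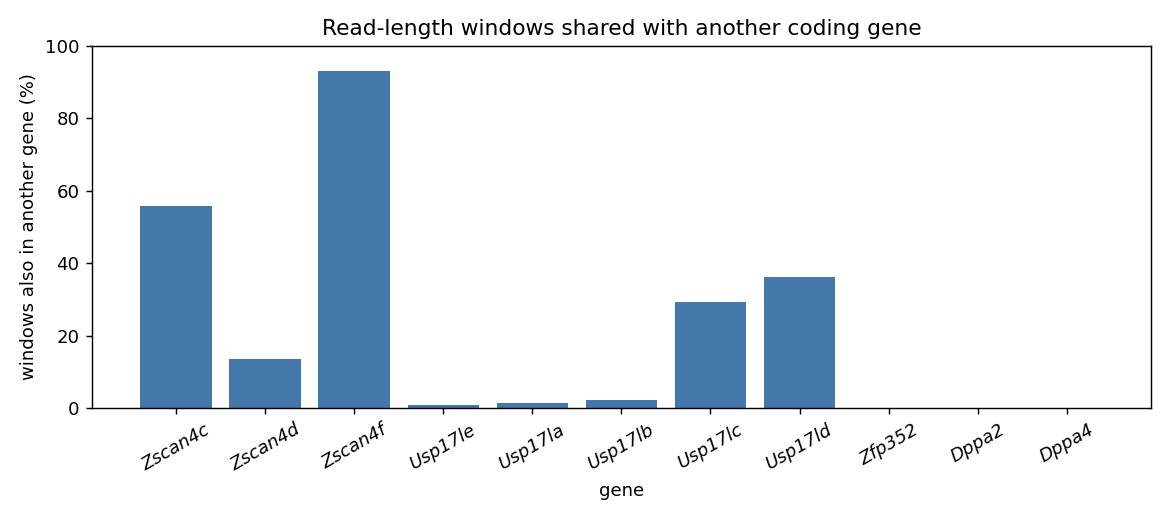
Share of the windows of 150 bases in the longest annotated coding transcript of each gene (x axis) that occur unchanged in a coding transcript of another gene (y axis, percent, 1 bar per gene). Zscan4f has the highest bar at 93.0%, and Zfp352, Dppa2 and Dppa4 are at 0.

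The copies of Usp17le are more distant. Usp17le was 85.9% identical to Usp17la, its closest copy in the tables, and 0.814% of its windows occur in another gene. The 100 coding bases with the most differences between the 2 genes show how far a read can separate them, with capitals at the 17 bases that differ.
Usp17le: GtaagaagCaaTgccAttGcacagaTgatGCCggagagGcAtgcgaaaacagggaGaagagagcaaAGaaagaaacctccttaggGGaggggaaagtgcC
Usp17la: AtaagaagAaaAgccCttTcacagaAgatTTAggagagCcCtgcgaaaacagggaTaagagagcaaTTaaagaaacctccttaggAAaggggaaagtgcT
No window of Zfp352, Dppa2 or Dppa4 occurs in another gene. The coding regions of Dppa2 and Dppa4 share 56.0% of their aligned positions.

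The stretch before the start of the Zscan4 genes is as alike as their coding regions, and it is shown because the 3 copies fell together on conversion of the Oct4- and Sox2-cKO lines. The RefSeq promoter table (GRCm38.p6) holds 4 of the 7 genes, Zscan4c, Zscan4d, Zscan4f and Zfp352. The block of 216 bases upstream of the annotated starts that the 3 Zscan4 promoters have in common lies at chr7:11005506-11005721 (plus strand) for Zscan4c, chr7:11166183-11166398 (minus strand) for Zscan4d and chr7:11397699-11397914 (plus strand) for Zscan4f. Capitals mark the 7 positions that are not alike in all 3.
Zscan4c: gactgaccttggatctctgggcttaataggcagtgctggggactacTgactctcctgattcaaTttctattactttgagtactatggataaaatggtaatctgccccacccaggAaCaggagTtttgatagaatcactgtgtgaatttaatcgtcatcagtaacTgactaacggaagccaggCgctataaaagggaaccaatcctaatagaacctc
Zscan4d: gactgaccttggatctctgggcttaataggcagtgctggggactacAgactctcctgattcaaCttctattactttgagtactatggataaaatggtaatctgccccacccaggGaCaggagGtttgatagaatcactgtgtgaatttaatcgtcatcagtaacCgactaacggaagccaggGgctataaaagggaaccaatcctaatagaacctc
Zscan4f: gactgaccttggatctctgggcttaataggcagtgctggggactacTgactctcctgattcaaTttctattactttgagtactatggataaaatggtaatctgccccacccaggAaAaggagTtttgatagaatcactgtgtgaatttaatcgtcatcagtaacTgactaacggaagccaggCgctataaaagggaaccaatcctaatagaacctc
All 3 blocks carry the letters TATAAA (both strands searched), which begin 31 bases before the RefSeq start of Zscan4f, 54 before that of Zscan4c and 65 before that of Zscan4d. TATAAA occurs within 250 bases upstream of the start in 13.0% of the 27025 promoters of the table. The octamer ATGCAAAT, a motif of Oct4, occurs in 1.61% of them, and CATTGT, a motif of Sox factors, in 11.0%. Neither is among the 250 bases upstream of Zscan4c, Zscan4d, Zscan4f or Zfp352, which says only that these letters are not in these windows.

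Libraries held between 10807631 and 15069899 reads on genes. The precision of the 2C genes is limited by their small counts at this depth. The targeted factors followed their labels. Dox lowered Pou5f1 (Oct4) in Oct4-cKO L-EPSCs from 6420 and 6316 normalized counts (reads divided by the library's size factor) to 162 and 184, and Sox2 in Sox2-cKO L-EPSCs from 4966 and 4701 to 47.0 and 53.1. Nanog in Nanog-cKO L-EPSCs went from 9119 and 8847 to 3166 and 3112, so Nanog transcript remained after Dox. The study reports that Nanog protein was lost on Dox in these cells, by western blot. Naive pluripotency markers (9 genes) had the highest sums in ESCs of every line. Fibroblast markers (9 genes) summed to 119475 and 121781 normalized counts in J1 ESCs, 77431 and 77757 in J1 D-EPSCs and 38737 and 39616 in J1 L-EPSCs, against 4724 to 29837 in the tet-off libraries, where 8 of the genes are listed and the fibroblast gene Lum was at 0 in 8 of the 9 groups. Trophoblast markers (9 genes) summed to 33225 and 32862 in Dox-treated Oct4-cKO L-EPSCs and 13682 and 13601 in Dox-treated Sox2-cKO L-EPSCs, against at most 6044 in any other library. Both EPSC types were grown without feeder cells before RNA-seq, while J1 ESCs were kept on feeders or on gelatin. The part of these cell types in the results below was not tested.

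The Zscan4 copies were nearly silent in J1 cells and were read most often in Oct4-cKO ESCs. Zscan4c had 0 and 0 reads in J1 ESCs, 7 and 6 in D-EPSCs and 15 and 10 in L-EPSCs. In Oct4-cKO cells it had 325 and 340 reads in ESCs, 47 and 42 in untreated L-EPSCs and 42 and 42 after Dox. In Sox2-cKO cells it had 110 and 108 reads in ESCs, 11 and 7 in untreated L-EPSCs and 18 and 20 after Dox. In both lines the ESCs stood well above the L-EPSCs, with no overlap. Nanog-cKO cells ran the other way, with 13 and 13 reads in ESCs, 30 and 34 in untreated L-EPSCs and 19 and 23 after Dox.

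Zscan4d and Zscan4f followed Zscan4c in the Oct4- and Sox2-cKO lines. Zscan4d had 274 and 252 reads in Oct4-cKO ESCs and 45 and 42 in the untreated L-EPSCs, and 71 and 93 reads in Sox2-cKO ESCs and 10 and 14 in the L-EPSCs. Zscan4f had 211 and 206 reads in Oct4-cKO ESCs and 21 and 36 in the untreated L-EPSCs, and 53 and 77 reads in Sox2-cKO ESCs and 6 and 8 in the L-EPSCs. In Nanog-cKO cells the ESCs had 25 and 21 reads of Zscan4d against 30 and 21 for untreated L-EPSCs, which overlap, and 10 and 17 reads of Zscan4f against 27 and 33, which do not. After Dox, Zscan4d had 42 and 41 reads in the Oct4-cKO, 19 and 23 in the Sox2-cKO and 34 and 26 in the Nanog-cKO line, and Zscan4f had 23 and 10, 4 and 5, and 23 and 29.

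**Figure D2:**
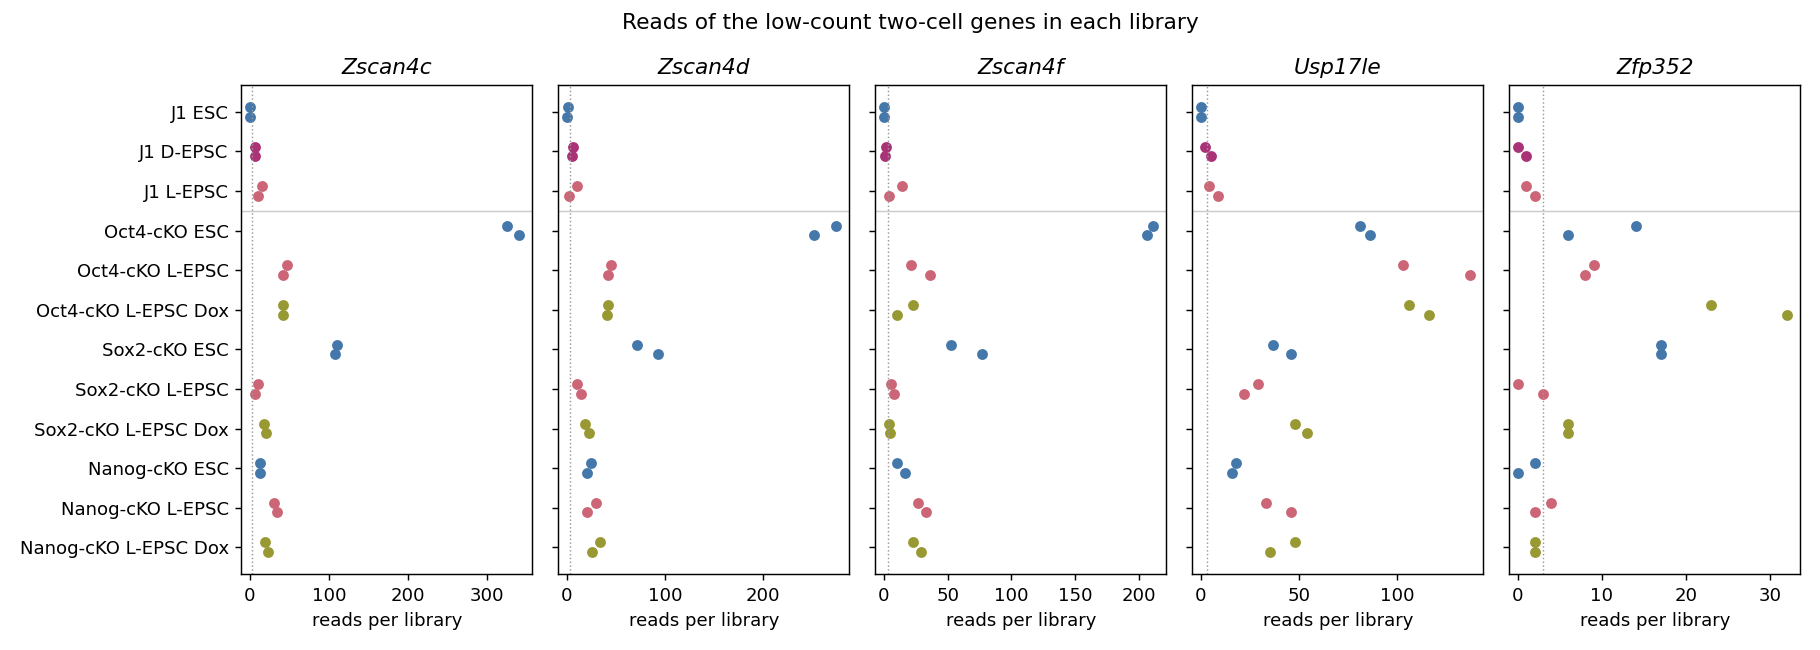
Reads per library (x axis, a linear scale of its own for each gene) of the 5 low-count 2C genes in the 12 groups (y axis), with 1 point per library and a dotted line at 3 reads, the floor. The ESCs of the Oct4- and Sox2-cKO lines stand to the right of all other groups for the 3 Zscan4 copies, while Usp17le is highest in untreated and Dox-treated Oct4-cKO L-EPSCs.

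Zscan4 transcripts fell on conversion of Oct4- and Sox2-cKO ESCs to L-EPSCs, and rose, for Zscan4c, in the Nanog-cKO line. The log2 difference of normalized count + 1 between untreated L-EPSCs and ESCs was -3.04 ± 0.28 (SE) for Zscan4c, -2.74 ± 0.26 for Zscan4d and -3.04 ± 0.43 for Zscan4f in the Oct4-cKO line (limma, adjusted p = 1.4e-07, 1.6e-07 and 1.9e-05). For the Sox2-cKO line it was -3.34 ± 0.28, -2.53 ± 0.26 and -2.89 ± 0.43 (adjusted p = 8.8e-08, 7.2e-07 and 4.8e-05). In the Nanog-cKO line Zscan4c rose by 1.19 ± 0.28 (adjusted p = 0.0026), whereas the differences of Zscan4f, 1.08 ± 0.43 (adjusted p = 0.055), and Zscan4d, 0.07 ± 0.26 (adjusted p = 0.93), did not pass. With the Nanog-cKO ESCs and L-EPSCs fitted alone, the rise of Zscan4c had an adjusted p of 0.054, and that of Zscan4f passed in both count tests (edgeR, adjusted p = 0.0069, and DESeq2, adjusted p = 0.021).

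The conversion effect differed between the lines when the difference itself was tested. Against the Nanog-cKO line, the effect on Zscan4c was lower by 4.23 ± 0.40 on the log2 scale in the Oct4-cKO line and by 4.53 ± 0.40 in the Sox2-cKO line (limma, adjusted p = 7.4e-07 and 4.1e-07). All 3 copies passed this test in both contrasts, with differences between -2.61 and -4.53. Between the Oct4- and Sox2-cKO lines none of the 3 passed (differences from -0.20 to 0.30, SE 0.36 to 0.61, adjusted p from 0.69 to 0.93).

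Dox did not move the Zscan4 copies past the threshold in any line. The log2 differences between Dox-treated and untreated L-EPSCs ran from -0.81 ± 0.43 for Zscan4f in the Sox2-cKO line (adjusted p = 0.16) to 0.71 ± 0.28 for Zscan4c in the same line (adjusted p = 0.059). The Zscan4 copies had 4 to 47 reads in these libraries, so small changes were not detectable at this depth. The Dox effect on Zscan4c differed between the Sox2- and Nanog-cKO lines (1.36 ± 0.40, adjusted p = 0.016), with 1 line at 0.71 and the other at -0.65. This call was lost without replicate 2 of untreated Sox2-cKO L-EPSCs (adjusted p = 0.052) and without replicate 1 of Dox-treated Nanog-cKO L-EPSCs (adjusted p = 0.056).

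Summed over the 3 listed copies, without reads that the counting dropped or gave to other copies, Zscan4 stood at 67.3 ± 4.36 RPM (reads scaled to an equal library total, SD, n = 2) in Oct4-cKO ESCs, 19.9 ± 0.276 in Sox2-cKO ESCs and 4.32 ± 0.398 in Nanog-cKO ESCs. The 3 ESC lines thus stood far apart from each other. In untreated L-EPSCs the sums were 8.40 ± 0.475 (Oct4-cKO), 2.35 ± 0.00940 (Sox2-cKO) and 7.25 ± 0.157 (Nanog-cKO), so conversion lowered the sum 8.02-fold and 8.45-fold in the first 2 lines and raised it 1.68-fold in the last. After Dox they were 9.08 ± 1.15, 3.02 ± 0.315 and 6.34 ± 1.20. In J1 cells the sum was 1 read and 0 reads in the 2 ESC libraries, 15 and 12 in D-EPSCs and 39 and 16 in L-EPSCs. No test was run on these sums.

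In J1 cells the 2C genes can be given only as bounds, since ESCs were at the floor of 3 reads per library for all 5. The bounds set the observed EPSC mean against that floor and do not cover the counting error or spread of that mean. Against that floor, the rise of the Zscan4c mean over ESCs was at least 2.38-fold for D-EPSCs and at least 4.93-fold for L-EPSCs. The bounds were 2.02 and 2.30 for Zscan4d, with 10 and 2 reads in the L-EPSC libraries, and 3.48 in L-EPSCs for Zscan4f, with 14 and 4. All 5 differences passed (limma, adjusted p from 5.3e-04 to 0.046), but only those of Zscan4c kept the call in all 11 alternatives. The call of Zscan4d in D-EPSCs was lost in both count tests (adjusted p = 0.12 with DESeq2 and 0.067 with edgeR) and without any one library. In L-EPSCs it was lost with DESeq2 (adjusted p = 0.092) and without either ESC library or L-EPSC replicate 1, and that of Zscan4f was lost without either ESC library (adjusted p = 0.082). D-EPSCs had 6 and 5 reads of Zscan4d and 2 and 1 of Zscan4f. None of the 3 copies passed between L-EPSCs and D-EPSCs (limma, adjusted p from 0.058 to 0.97).

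Usp17le did not fall with the Zscan4 copies in the Oct4-cKO line and rose with Zscan4c in the Nanog-cKO line. It had 81 and 86 reads in Oct4-cKO ESCs, 103 and 137 in untreated L-EPSCs and 106 and 116 after Dox. In the Sox2-cKO line it had 37 and 46, then 29 and 22, then 48 and 54 reads, and in the Nanog-cKO line 18 and 16, then 33 and 46, then 48 and 35. Usp17le was thus highest in the Oct4-cKO line in all 3 states, and in that line its reads were not lower in L-EPSCs than in ESCs. It rose on conversion of Nanog-cKO ESCs by 1.10 ± 0.24 on the log2 scale (adjusted p = 0.0011). Its differences in the Oct4-cKO line (0.33 ± 0.24, adjusted p = 0.29) and the Sox2-cKO line (-0.54 ± 0.24, adjusted p = 0.091) did not pass. The rise in the Nanog-cKO line had an adjusted p of 0.078 with its ESCs and L-EPSCs fitted alone. Of the differences between lines, that between the Sox2- and Nanog-cKO lines passed (-1.64 ± 0.34, adjusted p = 0.0015).

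On Dox, Usp17le had an adjusted p under 0.05 in the Sox2-cKO line, but its log2 difference of 0.65 ± 0.24 (adjusted p = 0.038) stayed under the limit of 1 set for Dox. In the other 2 lines its differences were 0.24 ± 0.24 and 0.00 ± 0.24. In J1 cells it had 0 and 0 reads in ESCs, 2 and 5 in D-EPSCs and 4 and 9 in L-EPSCs. Against ESCs set at the floor, the means rose at least 1.27-fold and 2.65-fold (limma, adjusted p = 0.033 and 0.0070). The D-EPSC library with 2 reads was itself under the floor. The first call was lost in both count tests (adjusted p = 0.064 with DESeq2 and 0.058 with edgeR) and without any one library, and the second without either ESC library or L-EPSC replicate 2 (adjusted p from 0.056 to 0.089).

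The other Usp17l genes listed (Usp17la, Usp17lb, Usp17lc and Usp17ld, further members of the same enzyme family) were summed with Usp17le. The sums therefore include its reads. The 5 Usp17l genes together stood at 21.0 ± 1.91 RPM in Oct4-cKO ESCs, 25.1 ± 3.62 in untreated L-EPSCs and 32.1 ± 1.72 after Dox. In the Sox2-cKO line they took 10.7 ± 1.98, 6.35 ± 1.89 and 10.2 ± 0.887, and in the Nanog-cKO line 3.35 ± 0.266, 7.06 ± 1.14 and 6.60 ± 0.474. Among these 4, Usp17la and Usp17ld rose on conversion of Nanog-cKO ESCs (1.63 ± 0.34 and 1.26 ± 0.45, limma, adjusted p = 0.00081 and 0.034), while Usp17lc and Usp17ld fell in the Sox2-cKO line (-1.75 ± 0.57 and -1.28 ± 0.45, adjusted p = 0.023 and 0.037). On Dox, Usp17ld fell in the Nanog-cKO line from 9 and 11 reads to 5 and 2 (-1.44 ± 0.45, limma, adjusted p = 0.028). Its Dox effect in the Oct4- and Sox2-cKO lines differed from that by 2.60 ± 0.64 and 2.59 ± 0.64 (adjusted p = 0.0044 and 0.0052). Usp17lc and Usp17ld share 98.4% of their coding bases, so their reads are not independent.

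Zfp352 was the lowest of the 7 genes, with at most 32 reads in any library. It had 14 and 6 reads in Oct4-cKO ESCs, 9 and 8 in untreated L-EPSCs and 23 and 32 after Dox. In the Sox2-cKO line it had 17 and 17 reads in ESCs, 0 and 3 in L-EPSCs and 6 and 6 after Dox, and in the Nanog-cKO line it had at most 4 reads in any library. All J1 libraries had 0 to 2 reads, at the floor. Zfp352 rose on Dox in the Oct4-cKO line by 1.89 ± 0.69 on the log2 scale (adjusted p = 0.037), with no overlap of the groups. This call was lost when any of the 4 libraries was left out (adjusted p from 0.081 to 0.16) and with a pseudocount of 0.1 (adjusted p = 0.32). On conversion of Sox2-cKO ESCs Zfp352 fell to the floor and was at least 5.12-fold lower (adjusted p = 0.0020), a call lost only with these groups fitted alone.

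Dppa2 and Dppa4 were measured with 141 to 2081 reads in every library, and most of their differences stand far outside the spread of replicates. Dppa2 had 1829.8 and 1930.9 normalized counts in Oct4-cKO ESCs, 599.9 and 622.5 in untreated L-EPSCs and 287.9 and 258.6 after Dox. Sox2-cKO cells had 853.1 and 866.2, then 444.0 and 479.9, then 237.6 and 269.0. In the Nanog-cKO line it had 2116 and 1991 in ESCs, 150.2 and 181.5 in untreated L-EPSCs and 296.0 and 321.5 after Dox. Dppa2 thus stepped down at both transitions in the Oct4- and Sox2-cKO lines, but in the Nanog-cKO line it was lowest in untreated L-EPSCs and higher after Dox.

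Dppa4 had 1723 and 1743 normalized counts in Oct4-cKO ESCs, 1029 and 1055 in untreated L-EPSCs and 359.3 and 370.7 after Dox. Sox2-cKO cells had 1627 and 1591, then 909.6 and 920.8, then 287.9 and 257.6. In the Nanog-cKO line it had 1891 and 1809 in ESCs, then 934.1 and 910.5 in untreated L-EPSCs, and 939.0 and 870.1 after Dox. The ESCs of the 3 lines were close to each other, and so were their untreated L-EPSCs, while the Dox-treated groups separated, with the Oct4- and Sox2-cKO lines well under the Nanog-cKO line.

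**Figure D3:**
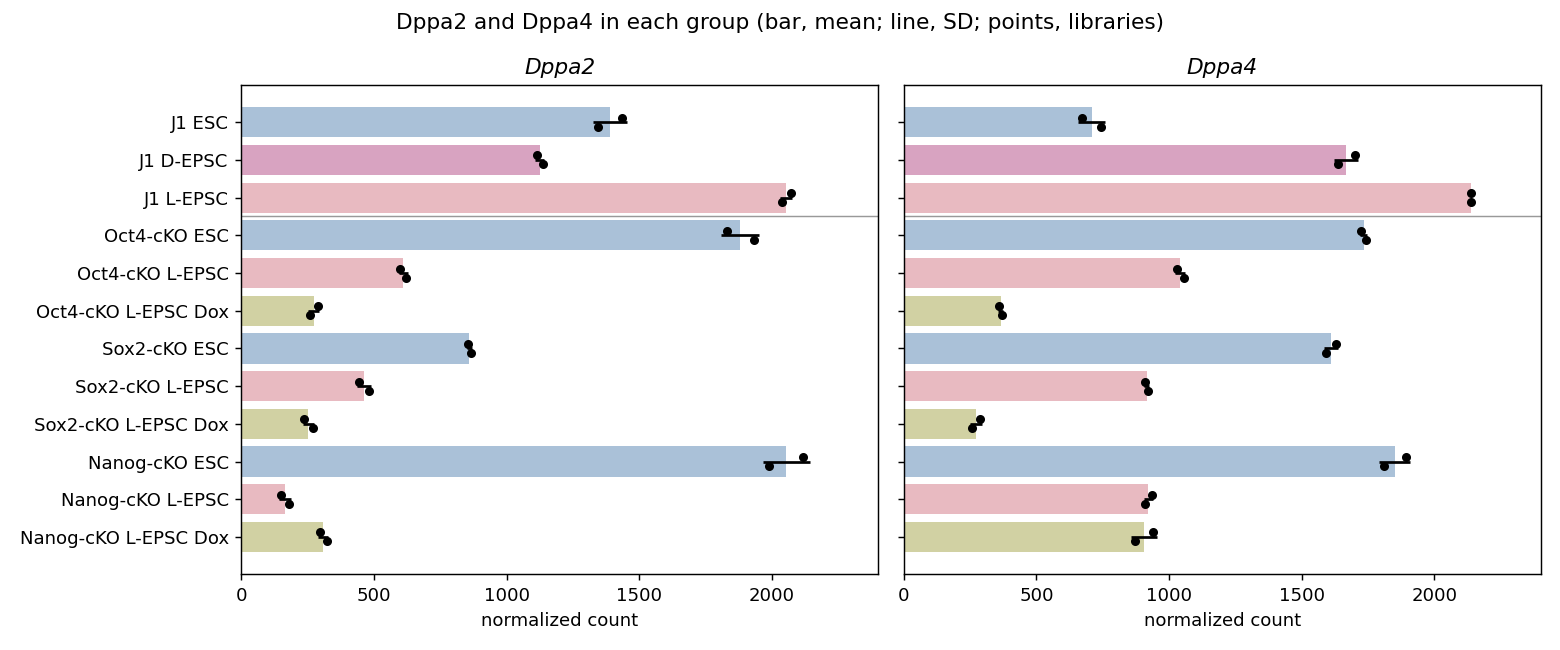
Normalized counts (x axis, linear) of Dppa2 and Dppa4 in the 12 groups (y axis), with the mean as a bar, the SD as a line and the 2 libraries as points; J1 and tet-off tables were normalized separately. Dppa2 is lowest in untreated Nanog-cKO L-EPSCs (165.8) and Dppa4 in Dox-treated Sox2-cKO L-EPSCs (272.7), and in J1 both are highest in L-EPSCs.

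Both genes fell on conversion in all 3 lines. Dppa2 fell most in the Nanog-cKO line, by 3.63 ± 0.09 on the log2 scale (limma, adjusted p = 1.4e-14), against 1.62 ± 0.09 in the Oct4-cKO line (adjusted p = 2.1e-10) and 0.90 ± 0.09 in the Sox2-cKO line (adjusted p = 5.5e-07). Each of the 3 differences between lines passed the test, at 2.01 ± 0.13 between the Oct4- and Nanog-cKO lines, 2.73 ± 0.13 between the Sox2- and Nanog-cKO lines and -0.72 ± 0.13 between the Oct4- and Sox2-cKO lines (adjusted p = 7.2e-09, 3.0e-10 and 4.9e-04). Dppa4 fell by 0.73 ± 0.06, 0.81 ± 0.06 and 1.00 ± 0.06 in the Oct4-, Sox2- and Nanog-cKO lines (adjusted p = 9.8e-09, 5.8e-09 and 2.2e-10). Of its differences between lines, that between the Oct4- and Nanog-cKO lines passed (0.27 ± 0.08, adjusted p = 0.017) and lost the call without replicate 2 of either untreated L-EPSC group or replicate 1 of Nanog-cKO ESCs (adjusted p from 0.055 to 0.063).

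The response of the pair to Dox depended on the line. Dppa4 fell by 1.51 ± 0.06 in the Oct4-cKO line and by 1.75 ± 0.06 in the Sox2-cKO line (adjusted p = 1.1e-12 and 3.4e-13), and in the Nanog-cKO line its difference was -0.03 ± 0.06 (adjusted p = 0.83). Dppa2 fell by 1.16 ± 0.09 in the Oct4-cKO line (adjusted p = 1.3e-08). In the Sox2-cKO line its difference was -0.87 ± 0.09 (adjusted p = 5.9e-07) and in the Nanog-cKO line 0.90 ± 0.09 (adjusted p = 1.2e-06), both under the limit of 1. Without replicate 2 of untreated Nanog-cKO L-EPSCs the latter was 1.03 and passed.

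The Dox effects of the Nanog-cKO line differed from those of both other lines for both genes. For Dppa2 the differences were -2.06 ± 0.13 (Oct4- minus Nanog-cKO) and -1.76 ± 0.13 (Sox2- minus Nanog-cKO), and for Dppa4 -1.48 ± 0.08 and -1.72 ± 0.08 (adjusted p from 8.0e-11 to 1.7e-08). The Oct4- and Sox2-cKO lines differed for Dppa4 by 0.23 ± 0.08 (adjusted p = 0.038), a call lost in both count tests and without any of 6 libraries (adjusted p from 0.058 to 0.14), and for Dppa2 by -0.29 ± 0.13 (adjusted p = 0.11).

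**Figure D4:**
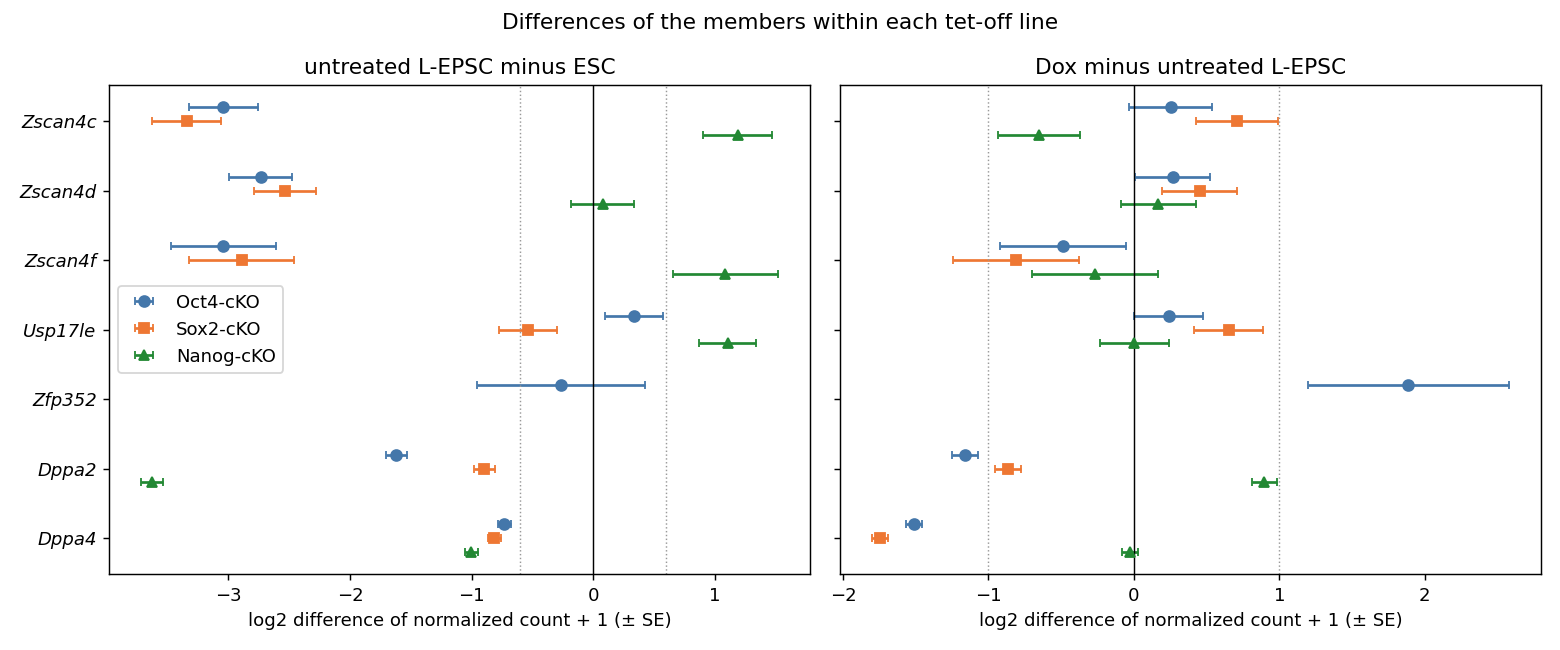
Log2 differences of normalized count + 1 (x axis, ± SE) of the 7 genes (y axis) on conversion (left) and on Dox (right) in each tet-off line, with dotted lines at the limits of 0.6 and 1; differences with a group at the floor are left out. On conversion the Nanog-cKO line is at 1.19 for Zscan4c and -3.63 for Dppa2, and on Dox it is at 0.90 for Dppa2.

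Ordered by level, Dppa2 was highest in Nanog-cKO ESCs (2053.6 ± 88.6, SD, n = 2) and Oct4-cKO ESCs (1880.4 ± 71.4), which did not differ beyond their spread (adjusted p = 0.34), followed by Sox2-cKO ESCs (859.6 ± 9.24), untreated Oct4-cKO L-EPSCs (611.2 ± 16.0) and untreated Sox2-cKO L-EPSCs (461.9 ± 25.4). Dox-treated Nanog-cKO (308.8 ± 18.03), Oct4-cKO (273.3 ± 20.7) and Sox2-cKO L-EPSCs (253.3 ± 22.2) came next and neighbours among them did not differ (adjusted p = 0.12 and 0.40). Untreated Nanog-cKO L-EPSCs (165.8 ± 22.1) were below them all. All other neighbours differed.

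The order of Dppa4 began with the ESCs of the Nanog-cKO (1850.4 ± 58.0), Oct4-cKO (1733 ± 14.2) and Sox2-cKO lines (1609 ± 25.8), whose neighbours did not differ (adjusted p = 0.24 and 0.18). Untreated Oct4-cKO L-EPSCs (1042 ± 18.5) were above untreated Nanog-cKO (922.3 ± 16.7), untreated Sox2-cKO (915.2 ± 7.93) and Dox-treated Nanog-cKO L-EPSCs (904.5 ± 48.7), and these 3 could not be ordered (adjusted p = 0.92 and 1). Dox-treated Oct4-cKO (365.0 ± 8.10) and Sox2-cKO L-EPSCs (272.7 ± 21.5) were last, and they differed from each other (adjusted p = 1.1e-05).

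In J1 cells the pair parted in D-EPSCs. Dppa2 had 1436.9 and 1345.5 normalized counts in ESCs, 1113 and 1136 in D-EPSCs and 2070.5 and 2036 in L-EPSCs, so D-EPSCs were lowest and L-EPSCs highest, with no overlap. Dppa4 had 673.1 and 743.3 in ESCs, 1699 and 1636 in D-EPSCs and 2139 and 2139 in L-EPSCs, with ESCs lowest. Against ESCs, the rise of Dppa4 was 1.24 ± 0.05 for D-EPSCs (limma, adjusted p = 1.4e-06) and 1.60 ± 0.05 for L-EPSCs (adjusted p = 4.4e-07). The differences of Dppa2 were -0.31 ± 0.04 for D-EPSCs (adjusted p = 9.4e-04) and 0.56 ± 0.04 for L-EPSCs (adjusted p = 3.4e-05), both under the limit of 0.6, and L-EPSCs exceeded D-EPSCs by 0.87 ± 0.04 (adjusted p = 7.3e-06). Neighbouring levels differed for both genes.

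The direction of conversion to L-EPSCs was opposite in J1 and in the tet-off lines for both Dppa genes and, in the Oct4- and Sox2-cKO lines, for the 3 Zscan4 copies. The tables were normalized separately and the lines differ in genotype and derivation, so this difference was not tested. The fibroblast sums were lower in J1 L-EPSCs than in J1 ESCs, with 6 of 9 markers called lower (20.3% of all genes were called). In the tet-off lines the sums were higher in untreated L-EPSCs than in ESCs, but the markers did not move together. For the mean conversion 1 rose (Pdgfrb, 1.35 on the log2 scale) and 3 fell (28.6% of all genes were called). Thy1 (-1.40) and Col1a2 (-0.94) were among those that fell, and the median was -0.08 over the 7 tested. The part of these markers in this difference was not tested.

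Per kilobase of exon (1948 bases for Dppa2 and 1534 for Dppa4), the balance of the pair also shifted. Dppa4 was at 0.646 times the level of Dppa2 in J1 ESCs, 1.88 times in D-EPSCs and 1.32 times in L-EPSCs. In the tet-off lines the ratio was 1.17, 2.17 and 1.70 in Oct4-cKO ESCs, untreated and Dox-treated L-EPSCs, 2.38, 2.52 and 1.37 in the Sox2-cKO line and 1.14, 7.06 and 3.72 in the Nanog-cKO line. The excess of Dppa4 in untreated Nanog-cKO L-EPSCs (7.90 and 6.37 in the 2 replicates) was the widest of the 12 groups. No test was run on these ratios.

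Counted over the 7 genes, conversion lowered 5 genes in the Oct4-cKO line (28.4% of all genes tested were called), 6 in the Sox2-cKO line (19.6% of all genes) and 2 in the Nanog-cKO line, where 2 others rose (26.9%). The median log2 difference of the 7 was -1.62, -2.53 and 1.08, against 0 over all genes in each comparison. The 3 Zscan4 copies share sequence, so the 7 genes are not independent measurements in any of these counts or medians. With Zfp352 at its bound in the Sox2-cKO line and left out at the floor in the Nanog-cKO line, the medians there were -2.36 and 0.58. For the mean of the 3 conversions 5 genes were called, all lower (28.6% of all genes). On Dox, 3 of the 7 were called in the Oct4-cKO line, 2 lower and 1 higher (19.3% of all genes), 1 lower in the Sox2-cKO line (15.1%) and 0 in the Nanog-cKO line (5.39%), where the count tests edgeR and DESeq2 also called 0 and 2 of the 7 had an unadjusted p under 0.05. In J1, 4 rose in D-EPSCs (20.7% of all genes), a count that was 2 in both count tests and without any one library of the 2 groups. In J1 L-EPSCs 5 rose (20.3%), or 3 and 2 without replicate 1 or 2 of the ESCs, and 1 gene, Dppa2, was called between the EPSC types (13.4%). Of the differences of conversion between lines, 1 was called between Oct4 and Sox2 (20.2% of all genes), 5 between Oct4 and Nanog (25.8%) and 6 between Sox2 and Nanog (25.5%). Of those of Dox, 1 was called between Oct4 and Sox2 (24.5%), 2 between Oct4 and Nanog (33.3%) and 3 between Sox2 and Nanog (29.4%).

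Pearson's r was taken across the 18 tet-off libraries on log2(normalized count + 1). Zscan4c had an r of 0.96 with Zscan4d, 0.89 with Zscan4f, 0.57 with Usp17le and 0.39 with Dppa2. The Zscan4 copies share sequence, and whether their counts share reads was not tested. Dppa2 and Dppa4 had an r of 0.75 with each other. The points are 9 groups of 2 libraries, so these are descriptions. Among 10029 other genes with a mean of at least 100, those most like Dppa2 were Atf7ip2 (r = 0.97), Incenp (0.96), Enah (0.96), Klf8 (0.96) and Enc1 (0.96), and those most like Dppa4 were Celf5 (0.98), Nr0b1 (0.98), Sdad1 (0.98), Xrcc5 (0.98) and Bub1b (0.97). Dppa4 ranked 568 in likeness to Dppa2, and Dppa2 ranked 1081 in likeness to Dppa4.

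Among other genes of the Dppa name and genes known to depend on Dppa2 and Dppa4 (Dppa1, Dppa3, Dppa5a, Mael, Syce1 and Nkx2-5, 6 genes), the responses split. Mael, a germline gene that Dppa2 and Dppa4 activate in ESCs, had 331 and 378 normalized counts in Oct4-cKO ESCs and 182 and 217 in the L-EPSCs, 268 and 270 against 125 and 144 in the Sox2-cKO line, and 344 and 322 against 103 and 107 in the Nanog-cKO line. It fell on conversion in all 3 lines (limma, adjusted p from 9.3e-09 to 2.9e-05), and it rose in both J1 EPSC states (by 2.37 and 2.62 on the log2 scale, adjusted p = 0.0026 and 0.0015). On Dox its differences were 0.77, 0.95 and 0.79, none past the limit of 1. Syce1, another germline gene, rose in both J1 EPSC states (1.23 and 0.96, adjusted p = 2.1e-04 and 7.9e-04) and fell on conversion in the Oct4-cKO line (-0.65, adjusted p = 7.6e-05). On conversion of the Sox2- and Nanog-cKO lines Syce1 was not called. Nkx2-5 was not called on conversion in any tet-off line or in either J1 EPSC state against ESCs. It was called lower on Dox in the Oct4-cKO line, where Dox-treated cells had 0 reads of it.

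Dppa1, which has the Dppa name but is not related to Dppa2 in sequence, was at 0 in the ESCs of all 3 tet-off lines. It had 61 and 81 normalized counts in untreated Oct4-cKO L-EPSCs and 1542 and 1613 after Dox, and 26 and 28, then 274 and 249, in the Sox2-cKO line. It rose on Dox in the Oct4- and Sox2-cKO lines (4.47 and 3.23 on the log2 scale, adjusted p = 1.2e-07 and 6.4e-06). In the Nanog-cKO line it rose from 0 and 1 reads to 26 and 28 (adjusted p = 7.8e-07). The trophoblast sums rose on Dox in all 3 lines, in the Nanog-cKO line from 688 and 640 normalized counts to 1091 and 1063. Of the 9 markers, 1 (Krt8) was called there, higher (5.39% of all genes). In the Oct4- and Sox2-cKO lines 6 and 7 were called, all higher (19.3% and 15.1%). The part of these markers in the rise of Dppa1 was not tested. Dppa3, a factor of the early embryo and germline, had 779 and 765 normalized counts in untreated Nanog-cKO L-EPSCs and 2939 and 3090 after Dox, and fell on Dox in the other 2 lines, from 850 and 823 to 161 and 175 (Oct4-cKO) and from 475 and 500 to 153 and 144 (Sox2-cKO). Dppa5a, an RNA-binding protein of pluripotent cells, fell on Dox in the Oct4- and Sox2-cKO lines (-2.11 and -2.45, adjusted p = 1.5e-15 and 6.3e-16) and had a difference of -0.69 in the Nanog-cKO line.

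In the list of 16 2C genes that the study used, which holds the 5 low-count genes above and is not independent evidence, since the study applied it to these samples, 8 fell and 1 rose on conversion in the Sox2-cKO line (19.6% of all genes were called), 3 fell and 1 rose in the Oct4-cKO line (28.4%), and 1 fell and 5 rose in the Nanog-cKO line (26.9%). The Oct4-cKO count is under the share over all genes. The medians were -0.82, 0.20 and 1.08 on the log2 scale. On Dox 1 rose and 2 fell in the Oct4-cKO line (19.3% of all genes), 1 fell in the Sox2-cKO line (15.1%) and 1 fell in the Nanog-cKO line (5.39%), all near or under the share over all genes. Obox6, an oocyte homeobox gene, fell on Dox in the Oct4- and Sox2-cKO lines (-2.88 ± 0.52 and -3.23 ± 0.52, adjusted p = 2.0e-04 and 7.9e-05). Against J1 ESCs, 5 rose and 1 fell in D-EPSCs (20.7% of all genes were called). In J1 L-EPSCs 4 rose and 1 fell (20.3%). Obox6 fell in D-EPSCs (-4.04 ± 0.46, limma, adjusted p = 2.7e-04). The list summed to 194 and 273 normalized counts in J1 ESCs, 478 and 473 in D-EPSCs and 212 and 215 in L-EPSCs. Of 22 further 2C genes, 7 were listed for the tet-off lines, among them Dux (Duxf3), with 12 and 10 reads in Oct4-cKO ESCs, 10 and 6 in Sox2-cKO ESCs, 8 and 1 in Nanog-cKO ESCs and 0 to 8 in each L-EPSC library. Duxf3 fell on conversion in the Sox2-cKO line (to the floor, adjusted p = 0.041).

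Among 20 known regulators of the 2C state, conversion lowered 8 and raised 2 in the Oct4-cKO line (28.4% of all genes were called), lowered 4 in the Sox2-cKO line (19.6%), and lowered 6 and raised 1 in the Nanog-cKO line (26.9%). The Sox2-cKO count is at the share over all genes. Trim28, a co-repressor that silences retroelements and 2C genes, fell by 1.34 and 1.42 on the log2 scale in the Oct4- and Nanog-cKO lines, and Lin28a, an RNA-binding protein of pluripotent cells, fell by 2.08, 1.17 and 1.55 in the Oct4-, Sox2- and Nanog-cKO lines (SE 0.05 each for Lin28a and 0.02 for Trim28). Against J1 ESCs, 2 of the 20 rose and 1 fell in D-EPSCs (20.7% of all genes were called). In J1 L-EPSCs 3 rose and 1 fell (20.3%), and both counts are under the share over all genes. Lin28a rose by 2.20 in J1 D-EPSCs and by 2.49 in J1 L-EPSCs, while Setdb1 was called lower in both (-0.67 and -0.81). On Dox 3 fell in the Oct4-cKO line (19.3% of all genes) and 2 in the Sox2-cKO line (15.1%), both under the share over all genes, with Trim28 in both (-1.09 and -1.40). In the Nanog-cKO line the Dox differences of Trim28 and Lin28a were 0.24 and 0.85, under the limit of 1.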

How the data were processed

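Poly(A) RNA-seq was analysed for 24 libraries, 6 of J1 cells and 18 of tet-off lines. Reads were trimmed with Trim Galore 0.6.4, aligned with STAR 2.7.9a to NCBIM37 and counted per gene with htseq 0.11.2, whose strand and multiple-match settings are not given in the sources used here. The authors deposited counts divided by DESeq2 size factors (listed as version 4.1.1), a normalized count signal, with each table normalized separately, so nothing was tested across tables. Whole reads were recovered for 100% of values (tolerance 0.1 of a read).

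Log2(normalized count + 1) was fitted with limma 3.58.1 in R 4.3.3, with all groups of a table in one fit, on genes with at least 2 reads in all (21533 in J1 and 24007 in tet-off cells). Benjamini-Hochberg adjustment ran over all genes tested in each comparison. Calls needed an adjusted p under 0.05 and a log2 difference over 0.6, or over 1 for Dox; differences between lines needed the adjusted p only. A group with at most 3 reads in each library was at the floor, which gives a bound and no fold. The bound sets that group at 3 reads per library and takes the observed mean of the other group. It does not cover the counting error or spread of that mean. Alternatives were edgeR 4.0.16 and DESeq2 1.42.0 on the recovered reads, TMM scaling, a pseudocount of 0.1, a filter on low means, other fold limits, a fit of the compared groups alone, a replicate block and leaving out each library. The scripts were tested on simulated data.

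The named genes were the 7 genes, all listed Zscan4 and Usp17l copies, the targeted factors, at most 3 called genes per list and comparison, and the 5 genes most like Dppa2 and Dppa4. The values of Syce1 and Dppa5a in the Oct4-cKO line were added after they were seen. So were the results of Trim28, Lin28a, Mael, Syce1, Nkx2-5 and Dppa5a where they were not called. The 7 genes and the lists were chosen with earlier results of these data known. Gene IDs were looked up in the NCBIM37 annotation for positions, and shared windows come from its transcripts. Promoters are from RefSeq.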

Additional observations from a re-analysis of the deposited data

Results flagged for a closer look

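The results here differed between lines, either by a test of the difference or, between J1 and the tet-off lines, without one. Effects in the tet-off lines were compared as log2 differences (limma, adjusted p).

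On conversion to L-EPSCs, the Oct4-cKO line differed from the Nanog-cKO line by -4.23 for Zscan4c (adjusted p = 7.4e-07), -2.81 for Zscan4d (2.1e-05), -4.12 for Zscan4f (8.0e-05), 2.01 for Dppa2 (7.2e-09) and 0.27 for Dppa4 (0.017, lost in 3 of 14 alternatives). The Sox2-cKO line differed from the Nanog-cKO line by -4.53 for Zscan4c (4.1e-07), -2.61 for Zscan4d (4.7e-05), -3.97 for Zscan4f (1.2e-04), -1.64 for Usp17le (0.0015), -4.27 for Zfp352 (0.0037) and 2.73 for Dppa2 (3.0e-10). The value of Zfp352 rests on groups at the floor and is no measure of size. The Oct4- and Sox2-cKO lines differed for Dppa2 by -0.72 (4.9e-04).

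On Dox, the Oct4- and Nanog-cKO lines differed by -2.06 for Dppa2 (1.7e-09) and -1.48 for Dppa4 (2.8e-10). The Sox2- and Nanog-cKO lines differed by 1.36 for Zscan4c (0.016, lost in 2 of 14 alternatives), -1.76 for Dppa2 (1.7e-08) and -1.72 for Dppa4 (8.0e-11), and the Oct4- and Sox2-cKO lines differed by 0.23 for Dppa4 (0.038), a call lost in 8 of 14 alternatives.

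Conversion of J1 ESCs to L-EPSCs went the other way from some or all of the tet-off lines, and this difference was not tested. In J1 L-EPSCs the means of Zscan4c, Zscan4d and Zscan4f were at least 4.93-, 2.30- and 3.48-fold those of ESCs set at the floor. In the Oct4- and Sox2-cKO lines these copies fell. The Nanog-cKO line went the same way as J1 for Zscan4c (1.19) and Usp17le (1.10). The mean of Usp17le in J1 L-EPSCs was at least 2.65-fold higher by the same bound, against a lower value in the Sox2-cKO line that did not pass. The log2 differences of Dppa2 (0.56) and Dppa4 (1.60) were opposite to those of all 3 tet-off lines.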

How the results depend on the processing

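Over 72 results of the 7 genes that have a fold and 942 alternatives, 890 kept their direction and their side of the threshold, 25 lost a call, 13 gained one and 14 changed sign, none of the last with a call on either side. For Dppa2 and Dppa4, 359 of 380 alternatives left the result as it was. Results given as bounds are not in these counts, and of 11 alternatives each the J1 calls against ESCs were lost in 0 for Zscan4c, in 7 (D-EPSCs) and 6 (L-EPSCs) for Zscan4d, in 2 for Zscan4f and in 6 and 3 for Usp17le. Replicate numbers did not pair the libraries, since same-numbered deviations had an r from -0.062 to 0.063, and the replicate block changed 0 of 72 calls.

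The number of the 7 genes called moved as follows. For J1 D-EPSCs against ESCs (4) it was 2 with DESeq2 or edgeR, 1 with a mean of at least 10, and from 2 to 2 without each library in turn. For J1 L-EPSCs against ESCs (5) it was 1 with that filter and from 2 to 4 without each library, and for L-EPSCs against D-EPSCs (1) it was 0 with the other fold limit and from 1 to 2. For conversion of the Nanog-cKO line (4) it was 2 with only the groups compared. With the other fold limit, Dox gave 1 in the Nanog-cKO line (main 0) and 3 in the Sox2-cKO line (main 1), and leaving out each library gave from 0 to 1 and from 1 to 2. For Oct4 minus Sox2 (1 each), conversion gave 2 with edgeR and from 1 to 2 without each library, and Dox gave 0 with DESeq2 or edgeR and from 0 to 1.

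Signs turned for Zscan4d between J1 L-EPSCs and D-EPSCs (-0.09; DESeq2 0.20, edgeR 0.22, and from -0.97 to 0.80 without each library) and for Usp17le on Dox in the Nanog-cKO line (0.00; DESeq2 -0.00867, edgeR -0.00969, and from -0.20 to 0.21). Without each library they also turned for Zscan4d in the Nanog-cKO line on conversion (-0.20 to 0.35) and Dox (-0.11 to 0.45), for Zscan4f on Dox in the Nanog-cKO (-0.60 to 0.065) and Oct4-cKO lines (-1.08 to 0.10), for Dppa4 on Dox in the Nanog-cKO line (-0.084 to 0.026) and for Zfp352 on conversion in the Oct4-cKO line (-0.87 to 0.33). The causes were not tested.

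Counts over all genes were within 1.5 times in all but a few of 211 alternatives. The exceptions with the other fold limit were 1836 for J1 L-EPSCs against D-EPSCs (2881), 2899 against ESCs (4380), 4056 for the mean conversion (6865), 4466, 2990 and 4196 for the Oct4-, Sox2- and Nanog-cKO conversions (6822, 4713 and 6457), and 5568 and 2386 for Dox in the Sox2- and Nanog-cKO lines (3628 and 1293). Nanog-cKO Dox gave 479 with only the groups compared, and J1 L-EPSCs against D-EPSCs gave 1913 without D-EPSC replicate 2.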
